A study of Mus musculus with 20 samples.

Results

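The 4 genes described here, Dlk1, Meg3, Rian and Mirg, lie in 1 imprinted region of mouse chromosome 12. They were chosen by name, through the gene symbols of the array platform, and make up 4 of the 18194 genes measured. The series holds 20 Affymetrix MOE430v2 arrays in 10 groups of 2, which cross 5 cell states with 2 genotypes. Wild-type (WT) cells were compared with cells lacking both de novo DNA methyltransferases (DKO, Dnmt3a-/-Dnmt3b-/-), and all lines were of the 129sv/Jae ES cell background J1. The question for these genes is how far their RNA levels depend on Dnmt3a and Dnmt3b in each cell state.

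ES cells were undifferentiated cells of the clones that the labels call J1G4.2 (WT) and 16G4.3 (DKO), kept with LIF. Both clones carried Gata4GR, a fusion of the transcription factor Gata4 with the hormone-binding part of the human glucocorticoid receptor, which the CAG promoter drives and dexamethasone (Dex) activates. Treatment of these clones with 100 nM Dex for 4 days gave primitive endoderm (PE). Flk1(+) cells were mesoderm cells sorted for Flk1 and PDGFRa after 4 days on type IV collagen. Here replicate 1 was the parental line without the transgene (J1 or 16aabb) and replicate 2 the transgenic clone. Dex- and Dex+ cells were such sorted cells of the transgenic clones, cultured for 4 more days without or with 100 nM Dex. Each genotype was 1 transgenic clone, so genotype and line cannot be told apart.

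An imprinted gene is transcribed mainly from the chromosome inherited from 1 parent. In this region the paternal chromosome expresses Dlk1, which encodes a transmembrane protein with EGF-like repeats related to the Notch ligands, while the maternal chromosome expresses the long noncoding RNAs Meg3 (also called Gtl2), Rian and Mirg. Rian hosts small nucleolar RNAs and microRNAs, and Mirg hosts part of a large microRNA cluster. The choice of chromosome depends on an intergenic control region that carries DNA methylation on the paternal copy, and Meg3 is widely used as a gauge of ES cell and iPS cell lines. The arrays do not separate the parental alleles, so every value below is the sum over both, and they do not measure the microRNAs.

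On assembly GRCm38.p6, Dlk1 spans chr12:109452485-109463336, Meg3 spans chr12:109540996-109571729, Rian spans chr12:109603945-109661716 and Mirg spans chr12:109734981-109749458. All 4 lie on the plus strand. Between the start of Meg3 and the end of Mirg, RefSeq places 60 microRNA genes, 57 of them on the plus strand. Of these plus-strand microRNA genes, 2 lie within the Meg3 gene model, 3 within Rian and 10 within Mirg. The RefSeq model of Rtl1, a gene of the same region with no probe set named for it here, spans chr12:109564900-109604418 and so overlaps the end of Meg3 and the start of Rian.

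The annotated start sites of Meg3 and Dlk1 are shown because the 2 genes moved differently. Each run below holds 250 bases before and 50 bases after a RefSeq start, plus strand, GRCm38.p6, with every CpG dinucleotide, a C followed by a G, in capitals; the enzymes deleted here methylate the C of such sites. The first is chr12:109540746-109541045 and the second chr12:109452573-109452872. The start of the Meg3 window is that of the gene model given above, while the start in the Dlk1 window lies 338 bases inside the Dlk1 gene model.
Meg3: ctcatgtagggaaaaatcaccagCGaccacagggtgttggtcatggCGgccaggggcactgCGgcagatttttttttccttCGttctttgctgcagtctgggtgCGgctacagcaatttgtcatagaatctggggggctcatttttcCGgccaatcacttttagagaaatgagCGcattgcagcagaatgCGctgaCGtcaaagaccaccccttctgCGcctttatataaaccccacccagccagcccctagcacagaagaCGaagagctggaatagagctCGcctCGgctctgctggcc
Dlk1: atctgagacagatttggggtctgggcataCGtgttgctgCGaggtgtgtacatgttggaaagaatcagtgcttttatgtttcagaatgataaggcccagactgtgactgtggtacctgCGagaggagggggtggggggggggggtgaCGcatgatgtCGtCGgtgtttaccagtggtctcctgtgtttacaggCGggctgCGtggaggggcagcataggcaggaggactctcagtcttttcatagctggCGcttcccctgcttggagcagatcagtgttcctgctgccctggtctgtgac
The Meg3 window holds 13 CpGs and the Dlk1 window 9, against a median of 7.0 over 32851 such windows. A window with at least 13 CpGs is found at 37.91% of starts and one with at least 9 at 45.78%. The windows at the annotated starts of Mirg and Rian hold 10 and 0 CpGs, and that of another annotated start of Meg3 holds 1. The letters TGCCGC, searched on both strands, occur once in the Meg3 window shown and in no other of these windows, and 11.61% of all windows hold them. The GATA letters AGATAA or TGATAA, on both strands, occur once in the Dlk1 window and once in that of Rian, and in 18.61% of all windows. No methylation was measured in these samples.

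Values are log2 signals after robust multi-array averaging (RMA), so a difference of 1 is a 2-fold change. Each gene is given by its brightest probe set of 19 in all (2 for Dlk1, 11 for Meg3, 4 for Rian and 2 for Mirg). A gene passed where the limma p, adjusted by the Benjamini-Hochberg method over all genes, was under 0.05 and the change at least 2-fold, and only such changes are called higher, lower, rise or fall. Changes are given ± the standard error of the fit, which used all 20 arrays. Array medians lay between 5.79 and 5.87. Replicate arrays correlated over genes at r = 0.9785 to 0.996. The deleted genes themselves differed in the labelled direction: Dnmt3a was lower in DKO cells by -3.12 in ES cells and Dnmt3b by -3.92, and in Dex+ cells neither passed. Primitive endoderm markers fitted the labels, with Sox17 at 12.85 ± 0.08 (SD, n = 2) in WT PE and 5.09 ± 0.67 in WT ES cells.

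Meg3 was the member with the largest genotype difference. In ES cells its log2 signal was 11.61 and 11.67 on the WT arrays and 8.20 and 9.62 on the DKO arrays. In PE the WT arrays gave 9.19 and 9.62, and the DKO arrays 9.43 and 10.39. The genotypes were apart in ES cells, where the DKO arrays also differed from each other by 1.42, and overlapped in PE. In Flk1(+) cells Meg3 read 12.11 and 11.54 on the WT arrays, against 5.48 and 6.62 on the DKO arrays. In Dex- cells it read 13.55 and 12.26 in WT, against 6.17 and 6.58 in DKO. In Dex+ cells it read 12.80 and 11.45 in WT, against 7.24 and 5.85 in DKO. In each of these mesoderm-derived states every WT array lay above every DKO array. The DKO signals there ran from 5.48 to 7.24, where the array medians were 5.79 to 5.87.

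**Figure D1:**
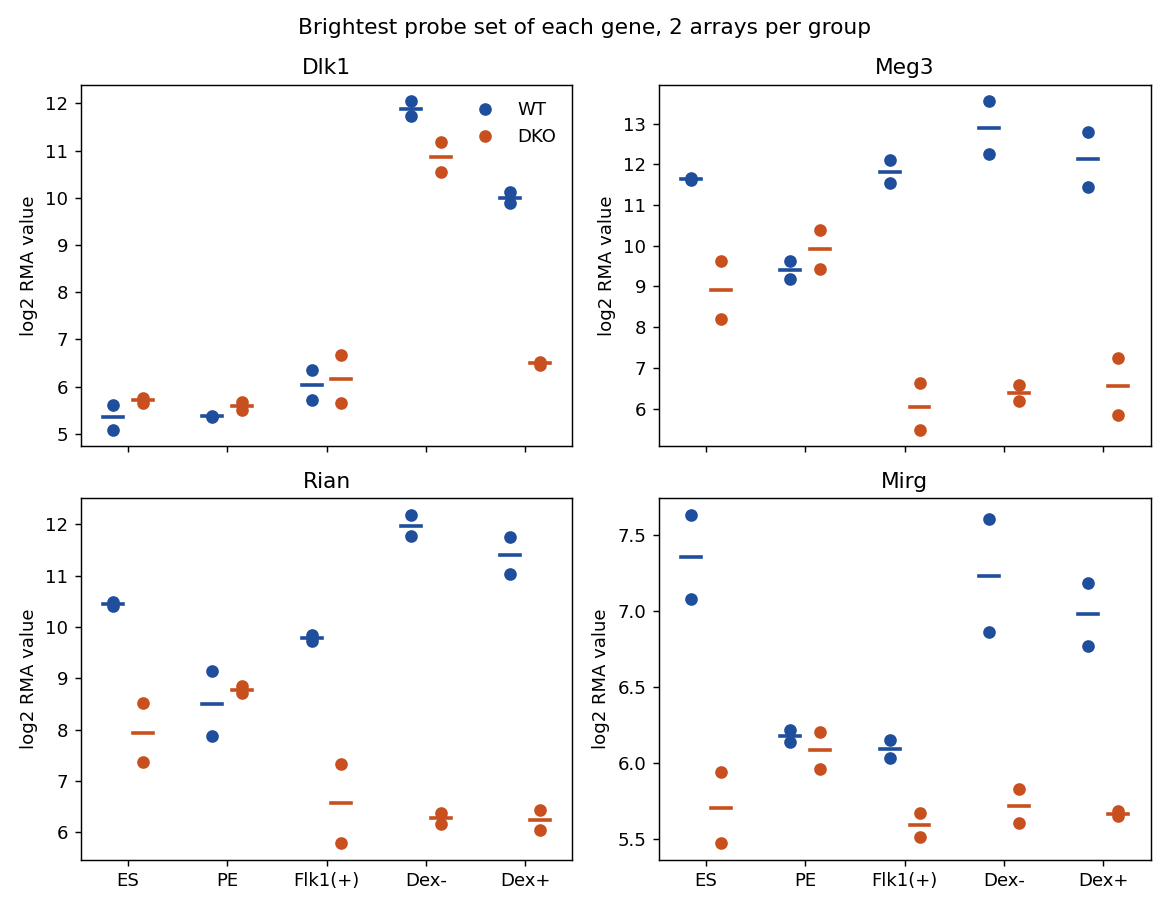
The log2 RMA signal of each gene (vertical axis) in the 5 cell states (horizontal axis), for WT (blue) and DKO (orange); each point is 1 array and each bar the mean of the 2 arrays. Meg3 and Rian are separated by genotype in every state but PE, and Dlk1 is high in Dex- cells of both genotypes and in Dex+ cells of WT.

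Rian is the noncoding RNA that lies next to Meg3. In ES cells its signal was 10.40 and 10.48 in WT, against 7.36 and 8.52 in DKO, and in PE it was 9.13 and 7.88 in WT, against 8.85 and 8.71 in DKO. In Flk1(+) cells it was 9.72 and 9.84 in WT, against 5.79 and 7.34 in DKO. In the cultures from sorted cells it was 11.77 and 12.18 (WT Dex-), 6.38 and 6.17 (DKO Dex-), 11.04 and 11.75 (WT Dex+), and 6.44 and 6.05 (DKO Dex+). The arrays of the genotypes overlapped in PE and in no other state. Mirg, the most distal of the 3 RNAs, was measured over a narrower range. It read 7.63 and 7.08 in WT ES cells against 5.47 and 5.94 in DKO, and 6.21 and 6.14 in WT PE against 5.96 and 6.20 in DKO. In Flk1(+) cells it read 6.03 and 6.15 in WT, against 5.51 and 5.67 in DKO. It read 7.60 and 6.86 (WT Dex-), 5.83 and 5.61 (DKO Dex-), 7.18 and 6.77 (WT Dex+), and 5.68 and 5.65 (DKO Dex+). Here too PE alone had overlapping genotypes, and in Flk1(+) cells the gap was narrow.

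Dlk1 had its high signals in cells cultured after the sort. In the first 3 states its signal stayed between 5.09 and 6.67 on all 12 arrays: 5.61 and 5.09 (WT ES), 5.66 and 5.76 (DKO ES), 5.36 and 5.39 (WT PE), 5.68 and 5.52 (DKO PE), 6.36 and 5.72 (WT Flk1(+)), and 6.67 and 5.66 (DKO Flk1(+)). The array medians were 5.79 to 5.87, so a lower Dlk1 signal in DKO could hardly have shown in these states. In Dex- cells Dlk1 reached 12.04 and 11.73 in WT, and also 11.19 and 10.55 in DKO. In Dex+ cells it was 10.12 and 9.88 in WT, against 6.52 and 6.47 in DKO. The DKO Dex+ arrays thus lay within the range of the Flk1(+) arrays, while the WT Dex+ arrays lay far above it.

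Ordered by group mean, Meg3 ran from WT Dex- (12.90 ± 0.91, SD, n = 2) through WT Dex+ (12.12 ± 0.96), WT Flk1(+) (11.82 ± 0.40) and WT ES cells (11.64 ± 0.04), whose neighbouring arrays overlapped. A gap separated them from DKO PE (9.91 ± 0.68), WT PE (9.40 ± 0.30) and DKO ES cells (8.91 ± 1.01), which again overlapped with their neighbours. The 3 lowest groups, DKO Dex+ (6.54 ± 0.98), DKO Dex- (6.38 ± 0.28) and DKO Flk1(+) (6.05 ± 0.81), lay below another gap and overlapped among themselves. Rian had the same top, middle and bottom sets of groups, with WT ES cells above WT Flk1(+) cells and no overlap between neighbours in the top set. For Mirg, WT ES (7.35 ± 0.39), WT Dex- (7.23 ± 0.52) and WT Dex+ cells (6.98 ± 0.29) came first and overlapped, WT PE, WT Flk1(+) and DKO PE (6.17 to 6.08) came next and overlapped, and the other DKO groups (5.72 to 5.59) came last. For Dlk1 the order was WT Dex- (11.88 ± 0.22), DKO Dex- (10.87 ± 0.45) and WT Dex+ (10.00 ± 0.17), none overlapping the next, then DKO Dex+ (6.49 ± 0.04) and the other 6 groups, where only DKO PE and WT PE were neighbours without overlap.

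The noncoding RNAs were lower in DKO than in WT ES cells. Meg3 was lower by -2.72 ± 0.60 (limma adjusted p = 0.02774), Rian by -2.50 ± 0.47 (adjusted p = 0.01126) and Mirg by -1.65 ± 0.24 (adjusted p = 0.001363), while Dlk1 differed by 0.36 ± 0.30 (adjusted p = 0.7757, 95% interval -0.27 to 1.00). Thus 3 of 4 members were lower, where 0.269% of all genes were lower and 1.39% passed in either direction. By size, Meg3 and Rian ranked 3 and 4 among the decreases of all genes. In the pairs of arrays with the same replicate number the Meg3 difference was -3.41 and -2.04. All ES arrays shared 1 scan day, so the day does not single out these pairs. The calls of Meg3 and Rian were lost without any 1 of WT replicate 1 (-2.75 and -2.54), WT replicate 2 (-2.69 and -2.46) or DKO replicate 1 (-2.01 and -1.91), so that the count of members was then 1, with Mirg alone.

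In PE no member differed between the genotypes by the limma test, where 1.96% of all genes passed. The differences were 0.51 ± 0.60 for Meg3 (adjusted p = 0.8976, 95% interval -0.78 to 1.80), 0.27 ± 0.47 for Rian (-0.74 to 1.29), -0.09 ± 0.24 for Mirg (-0.61 to 0.42) and 0.22 ± 0.30 for Dlk1 (-0.41 to 0.86). None of the 4 had an unadjusted p under 0.05, and the smallest was 0.4142. The intervals of the 3 RNAs do not reach the differences seen in ES cells. In PE, markers of ES cells also differed, with 3 of 5 lower in DKO (Sox2 by -4.22, Pou5f1 by -2.38 and Nanog by -2.32), while 0 of 5 primitive endoderm markers passed; the part of this in the levels of the RNAs was not tested.

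In Flk1(+) cells Meg3 was lower in DKO by -5.77 ± 0.60 (limma adjusted p = 0.0001457), a 54.6-fold difference and the largest decrease of any gene. This size is that of the brightest Meg3 probe set, while the median over its 11 probe sets was -2.13. Rian was lower by -3.22 ± 0.47 (adjusted p = 0.003671), a 9.31-fold difference. Mirg differed by -0.50 ± 0.24 (adjusted p = 0.396) and Dlk1 by 0.12 ± 0.30 (adjusted p = 0.9224, 95% interval -0.52 to 0.76). That is 2 of 4 members lower, against 0.302% of all genes lower and 0.698% passing in all. Between the parental lines (replicate 1) the Meg3 difference was -6.63 and between the transgenic clones (replicate 2) -4.92, so it was present without the transgene. Fitted on the 4 Flk1(+) arrays alone, with the same differences, neither passed (adjusted p = 0.2714 for Meg3 and 0.7323 for Rian).

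In Dex- cells all 4 members were lower in DKO, where 2.34% of all genes were lower and 5.84% passed. Meg3 was lower by -6.53 ± 0.60 (92.3-fold, limma adjusted p = 4.727e-06) and Rian by -5.70 ± 0.47 (51.9-fold, adjusted p = 1.822e-06), the first and second largest decreases of all genes. Mirg was lower by -1.51 ± 0.24 (adjusted p = 0.0006764). Dlk1 was lower by -1.01 ± 0.30 (adjusted p = 0.03625), just past the 2-fold limit, and this call was lost without WT replicate 1 (-0.86), WT replicate 2 (-1.17) or DKO replicate 2 (-0.70). In Dex+ cells all 4 were again lower, where 4.83% of all genes were lower and 9.65% passed. Meg3 was lower by -5.58 ± 0.60 (adjusted p = 1.018e-05), Rian by -5.15 ± 0.47 (adjusted p = 2.23e-06), Mirg by -1.31 ± 0.24 (adjusted p = 0.001143; -0.94, under 2-fold, with the mean of its probe sets) and Dlk1 by -3.51 ± 0.30 (11.4-fold, adjusted p = 1.014e-06). The pairs of Dex+ arrays gave -3.60 and -3.41 for Dlk1.

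**Figure D2:**
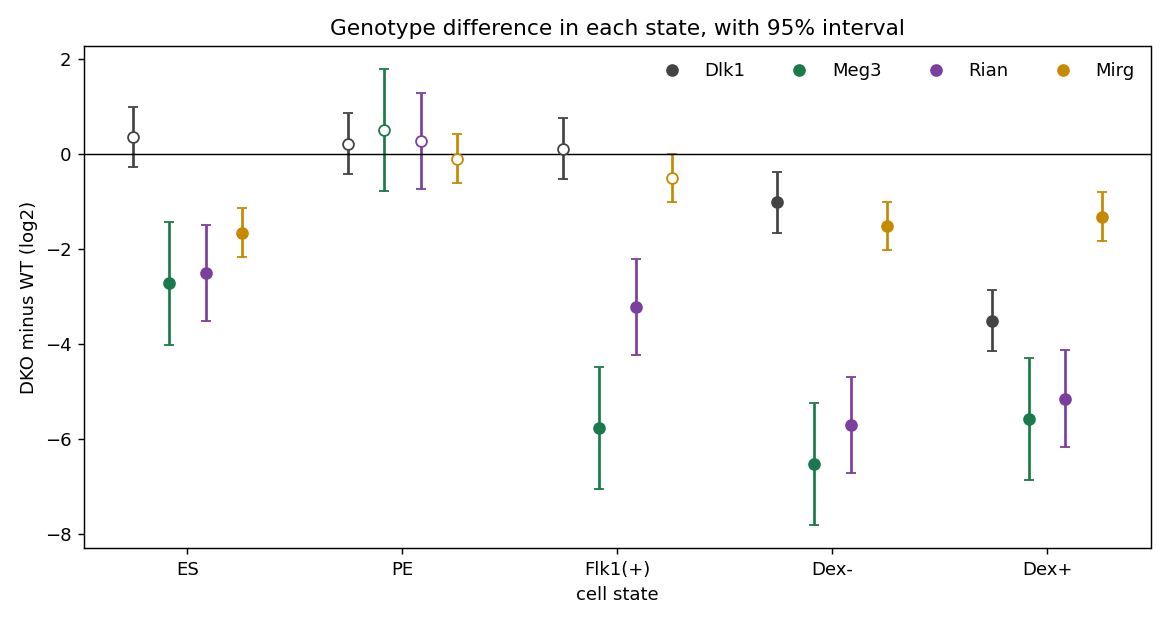
The DKO minus WT difference on the log2 scale (vertical axis) in each cell state, with the 95% interval of the limma fit; filled points passed the threshold and open points did not. All members lie near 0 in PE, and Meg3 and Rian reach -6.53 and -5.70 in Dex- cells.

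Every probe set was then tested on its own, among all probe sets with 1 gene symbol. In ES cells all 11 Meg3 probe sets had a negative DKO minus WT difference, from -3.39 to -0.21, and 4 passed. In Flk1(+) cells all 11 were negative, from -5.77 to -0.84, and 5 passed. In Dex- and in Dex+ cells all 11 passed, with differences from -6.53 to -1.12 in Dex- cells and from -5.58 to -1.28 in Dex+ cells. In PE none of the 11 passed, and their differences lay between -0.06 and 0.51. The 4 Rian probe sets were all lower in both cultured states and all negative in ES cells, where 2 passed, and in Flk1(+) cells, where 1 passed. The other Mirg probe set, 1440097_at, passed in no state and gave -0.99 in ES cells, -0.62 in Dex- cells and -0.56 in Dex+ cells. The other Dlk1 probe set, 1442724_at, was lower in DKO Dex- cells by -1.08 and in DKO Dex+ cells by -1.26. Probe sets of 1 gene share their arrays and are not replicates.

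**Figure D3:**
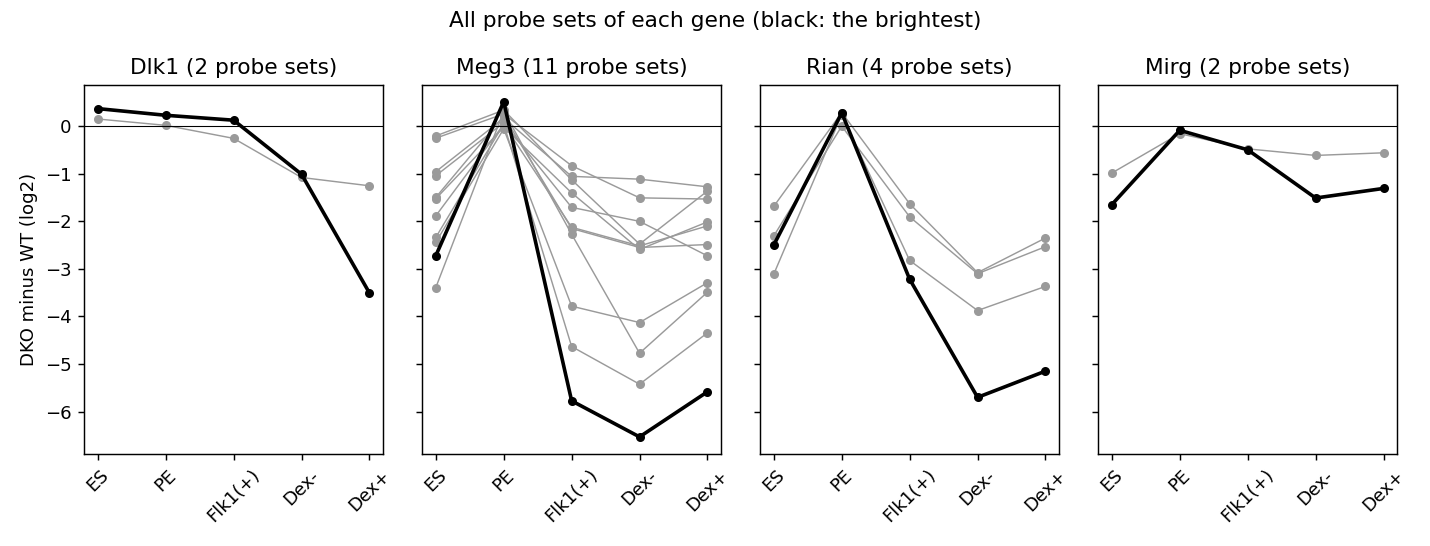
The DKO minus WT difference (log2, vertical axis) of every probe set of each gene in the 5 states (horizontal axis); the black line is the brightest probe set and grey lines are the others. All probe sets of Meg3 and Rian lie within 0.51 of 0 in PE and below 0 in the other states.

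Whether the genotype difference itself changed with state was tested as an interaction. From ES cells to PE the difference moved up by 3.23 ± 0.85 for Meg3 (limma adjusted p = 0.09837), 2.77 ± 0.67 for Rian (adjusted p = 0.06013) and 1.56 ± 0.34 for Mirg (adjusted p = 0.03255), so that 1 of 4 members passed, against 1.36% of all genes. Dlk1 moved by -0.14 ± 0.42. With the mean of its probe sets Mirg did not pass (1.19, adjusted p = 0.08357) and Rian did (2.60, adjusted p = 0.03773). With the replicate block, which pairs same-numbered WT and DKO arrays of a state, all 3 passed (Meg3 adjusted p = 0.0296, Rian 0.03405). The call of Mirg was lost without WT ES replicate 1 (1.28), DKO ES replicate 1 (1.33), WT PE replicate 1 (1.60), WT PE replicate 2 (1.52), DKO PE replicate 1 (1.68) or DKO PE replicate 2 (1.44), where its adjusted p was 0.07429 to 0.1665; Rian passed without DKO ES replicate 2 (3.36) or WT PE replicate 1 (3.40). From ES to Flk1(+) cells the difference moved by -3.05 ± 0.85 for Meg3 (adjusted p = 0.1546) and -0.72 ± 0.67 for Rian (adjusted p = 0.8007). It moved by 1.15 ± 0.34 for Mirg (adjusted p = 0.1805) and -0.24 ± 0.42 for Dlk1 (adjusted p = 0.9097). Here 0 members passed the limma test, against 0.791% of all genes. The unadjusted limma p was 0.00295 for Meg3, 0.3004 for Rian, 0.004236 for Mirg and 0.5721 for Dlk1. In this interaction the other 3 Rian probe sets were positive (0.052, 0.40 and 0.28), as were 2 of the other Meg3 probe sets (0.12 for 1429257_at and 1.12 for 1436713_s_at).

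The state changes within each genotype share these arrays, and are given side by side. All ES arrays were scanned on a day that no other state shared, so in changes from ES cells state and scan day cannot be told apart. The PE arrays were also of a chip lot that no ES array had. From ES cells to PE, Meg3 fell in WT by -2.24 ± 0.60 (limma adjusted p = 0.01086), Rian by -1.93 ± 0.47 (adjusted p = 0.005794) and Mirg by -1.18 ± 0.24 (adjusted p = 0.001529), so 3 of 4 members fell, where 6.55% of all genes fell and 14.2% passed. In DKO the same changes were 1.00 ± 0.60, 0.84 ± 0.47 and 0.38 ± 0.24, none passing (adjusted p = 0.2025 to 0.2606), where 16.3% of all genes passed. Dlk1 changed by 0.02 ± 0.30 in WT and -0.12 ± 0.30 in DKO. With the mean of its probe sets the fall of Mirg in WT was -0.95, under 2-fold. Of the 11 Meg3 probe sets 6 fell in WT and 1, the dim 1428765_at, did not have a negative sign (0.017). The WT calls of single RNAs were lost without WT ES replicate 1 (Mirg, -0.90), WT ES replicate 2 (Meg3, -2.21), WT PE replicate 1 (Meg3, -2.02) or WT PE replicate 2 (Rian, -1.31). From ES to Flk1(+) cells, Mirg fell in WT by -1.26 ± 0.24 (adjusted p = 0.001085), the only member of 4 to pass, where 12.5% of all genes passed, and not without WT ES replicate 1 (-0.99) or with the mean of its probe sets (-0.89). Meg3 changed by 0.18 ± 0.60 (adjusted p = 0.8668) and Rian by -0.66 ± 0.47 (adjusted p = 0.3606). The Meg3 probe sets disagreed here: 1436713_s_at read 8.55 and 8.90 in WT ES cells against 6.53 and 6.68 in WT Flk1(+) cells, a fall of -2.12 (adjusted p = 0.0002551), while 6 of the 11 had a positive sign and none of those passed. Dlk1 changed by 0.69 ± 0.30 (adjusted p = 0.1056) and passed without WT Flk1(+) replicate 2 (1.01). In DKO, Meg3 fell by -2.86 ± 0.60 (adjusted p = 0.002934), the only member of 4, where 10.2% passed. This call was lost without DKO ES replicate 2 (-2.15) and with the mean of the probe sets (-0.93, adjusted p = 0.08618); 3 of the 11 probe sets fell and 1436057_at gave 0.049. Mirg changed by -0.11 ± 0.24 and Dlk1 by 0.45 ± 0.30 in DKO. Rian changed by -1.38 ± 0.47 in DKO (adjusted p = 0.05218) and passed without DKO ES replicate 1 (-1.96) or DKO Flk1(+) replicate 2 (-2.16).

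From Flk1(+) to Dex- cells Dlk1 rose in both genotypes, by 5.84 ± 0.30 in WT (57.3-fold, limma adjusted p = 4.181e-09) and by 4.71 ± 0.30 in DKO (26.1-fold, adjusted p = 4.433e-08). In WT, Rian rose by 2.19 ± 0.47 (adjusted p = 0.002332) and Mirg by 1.14 ± 0.24 (adjusted p = 0.001946), while Meg3 changed by 1.08 ± 0.60 (adjusted p = 0.2188). That is 3 of 4 members in WT, where 15.3% of all genes passed, and 1 of 4 in DKO, where 16.6% passed. In DKO the RNAs changed by 0.32 ± 0.60 (Meg3), -0.28 ± 0.47 (Rian) and 0.13 ± 0.24 (Mirg). The WT call of Mirg was lost without WT Dex- replicate 1 (0.77), with the mean of its probe sets (0.78, under 2-fold) and with the WT Flk1(+) and Dex- arrays fitted alone (1.14, adjusted p = 0.05075). In the interaction 0 members passed the limma test, against 2.91% of all genes. Rian moved by -2.48 ± 0.67 (limma adjusted p = 0.0599, unadjusted p = 0.002268). Mirg moved by -1.01 ± 0.34 (adjusted p = 0.1429, unadjusted p = 0.009566) and Dlk1 by -1.13 ± 0.42 (adjusted p = 0.204, unadjusted p = 0.01707). Meg3 moved by -0.76 ± 0.85 (adjusted p = 0.8317). With the replicate block Rian (adjusted p = 0.03095) and Dlk1 (adjusted p = 0.0234) passed, and Rian also without both parental-line arrays (-3.20, adjusted p = 0.01403). Leaving out DKO Flk1(+) replicate 1 gave -3.26 for Rian, DKO Flk1(+) replicate 2 gave -1.64 for Dlk1, and WT Dex- replicate 2 gave -1.38 for Mirg, each past the threshold.

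With Dex, Dlk1 fell in both genotypes and further in DKO. No cells without Gata4GR were given Dex here, so effects of Dex itself and of Gata4GR activation cannot be told apart. Replicate 1 of the Dex- cells was scanned on another day than the Dex+ arrays. Dlk1 fell by -1.89 ± 0.30 in WT (3.69-fold, limma adjusted p = 0.002245) and by -4.38 ± 0.30 in DKO (20.8-fold, adjusted p = 1.075e-07). It was the only member of 4 to pass in either genotype, where 1.6% of all genes passed in WT and 9.63% in DKO. In WT it ranked 9 among the decreases of all genes. The difference between the genotypes was -2.49 ± 0.42 (adjusted p = 0.001876), 1 of 4 members, against 5.86% of all genes. The dimmer probe set 1442724_at gave an interaction of -0.17 ± 0.33 (adjusted p = 0.9033). On it, DKO Dex+ cells read 4.48 and 4.38, below the 4.64 to 4.82 of ES cells, and DKO Dex- cells read only 5.79 and 5.24. The noncoding RNAs Meg3, Rian and Mirg did not pass with Dex in either genotype (limma adjusted p = 0.7439 to 0.9813). Their changes were -0.78 ± 0.60, -0.58 ± 0.47 and -0.25 ± 0.24 in WT and 0.17 ± 0.60, -0.03 ± 0.47 and -0.05 ± 0.24 in DKO. The interactions were 0.95 ± 0.85 for Meg3, 0.55 ± 0.67 for Rian and 0.20 ± 0.34 for Mirg (adjusted p = 0.6757 to 0.8671).

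Markers of cell type also differed between the genotypes in Dex+ cells, where 9.65% of all genes passed and 4.83% were lower. Of 5 primitive endoderm markers 4 were higher in DKO than in WT Dex+ cells (Sox17 by 3.55, Gata6 by 2.76, Foxa2 by 2.19 and Sox7 by 1.55), and 3 of 5 smooth muscle and mural markers were lower (Cnn1 by -2.66, Tagln by -2.22 and Acta2 by -1.49). Of 5 mesoderm markers Kdr, Foxf1 and Hand1 were lower and Pdgfra higher, but with the mean of probe sets only 1 was lower. Of 5 endothelial and blood markers 3 were higher, or 2 with the mean of probe sets. Of 5 neural markers 1, Nes, was lower. In bulk RNA, fewer cells of a type and less RNA per cell cannot be told apart, and the part of these markers in the Dlk1 difference was not tested. Meg3 read 9.91 ± 0.68 in DKO PE and 6.54 ± 0.98 in DKO Dex+ cells (SD, n = 2). Sox17, 1 of the 5 primitive endoderm markers, read 13.03 ± 0.003 and 12.72 ± 0.09 in the same groups. In DKO all 5 markers rose from ES cells to PE, with a median change of 6.01. From Dex- to Dex+ cells 4 of 5 rose in DKO, with a median change of 2.98. The part of cell type in these Meg3 levels was not tested.

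Dlk1 is related to the ligands of the Notch receptors, so 17 genes of that pathway were read with it. In Dex+ cells 3 of 17 were lower in DKO and 0 higher: the ligand Jag1 by -3.43 ± 0.37 (limma adjusted p = 9.477e-06), the receptor Notch3 by -2.30 ± 0.26 (adjusted p = 1.659e-05) and the target Hes1 by -1.27 ± 0.17 (adjusted p = 6.095e-05). Their median difference was -0.06, against -0.0048 over all genes. In Dex- cells Notch3 alone was lower (-1.18 ± 0.26), in ES cells the ligand Dll1 alone was higher (1.73 ± 0.36), and in PE and Flk1(+) cells none of the 17 passed. In Dex+ cells 9.65% of all genes passed and 4.83% were lower. The share that passed was 5.84% in Dex- cells, 1.39% in ES cells, 1.96% in PE and 0.698% in Flk1(+) cells.

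Imprinted genes of other regions moved in both directions between the genotypes. The counts below are to be read against the share of all genes that passed, which was 1.39% in ES cells, 1.96% in PE, 0.698% in Flk1(+) cells, 5.84% in Dex- cells and 9.65% in Dex+ cells. Of 15 such genes that are expressed from the maternal copy, 0 passed in ES cells or PE, 1 was higher in Flk1(+) cells and 2 were higher in Dex- cells, none lower. In Dex+ cells 1 was higher and 3 were lower (Osbpl5 by -2.68, Cdkn1c by -1.81 and Igf2r just past the 2-fold limit); with the mean of probe sets 2 were lower. H19 was not read, since its probe set carries several gene symbols. The largest change was an increase in DKO Dex- cells of Asb4 (5.68 ± 0.39). Of 22 paternally expressed genes, 1 was higher in ES cells (Plagl1, by 1.68), 2 were higher and 2 lower in PE, 1 higher and 1 lower in Flk1(+) cells, 1 higher and 2 lower in Dex- cells, and 1 higher and 6 lower in Dex+ cells. The latter 6 included Zdbf2 (-3.98 ± 0.20), Nnat (-3.67 ± 0.26) and Igf2 (-2.26 ± 0.59), which encodes a fetal growth factor. With the mean of probe sets, 0 of the 22 were higher in ES cells, 1 was higher in PE and 7 were lower in Dex+ cells. By brightest probe set, the medians of the 2 lists were -0.27 (maternal) and -0.49 (paternal) in Dex+ cells, against -0.0048 over all genes.

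Genes on either side of the region were also read. The nearest measured genes before Dlk1 were Wdr25 and Wars, which encodes a tryptophanyl-tRNA synthetase, and the nearest after the region were Ppp2r5c, a regulatory subunit of a protein phosphatase, and the noncoding Gm19605. None passed in any state, with DKO minus WT differences between -0.48 and 0.78. Over the 20 arrays Wars averaged 10.54 and Ppp2r5c 9.93. Wdr25 averaged 5.74 and Gm19605 4.63, below the array medians of 5.79 to 5.87, so a decrease of these could hardly have shown. Inside the region, the noncoding RNAs 3110009F21Rik and Dio3os, named after their values were seen, had differences between -0.32 and 0.08 and did not pass. They averaged 5.07 and 6.63. Of 15 measured genes listed as neighbours, 1 passed in 1 state, Zfp839 in Dex- cells (1.36 ± 0.22), where 5.84% of all genes passed. Amn, farther along the chromosome and not among these 15, was higher in DKO Dex+ cells (3.47), where 9.65% of all genes passed. No probe set was named for Rtl1 or Dio3, so these members of the region were not analysed here.

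**Figure D4:**
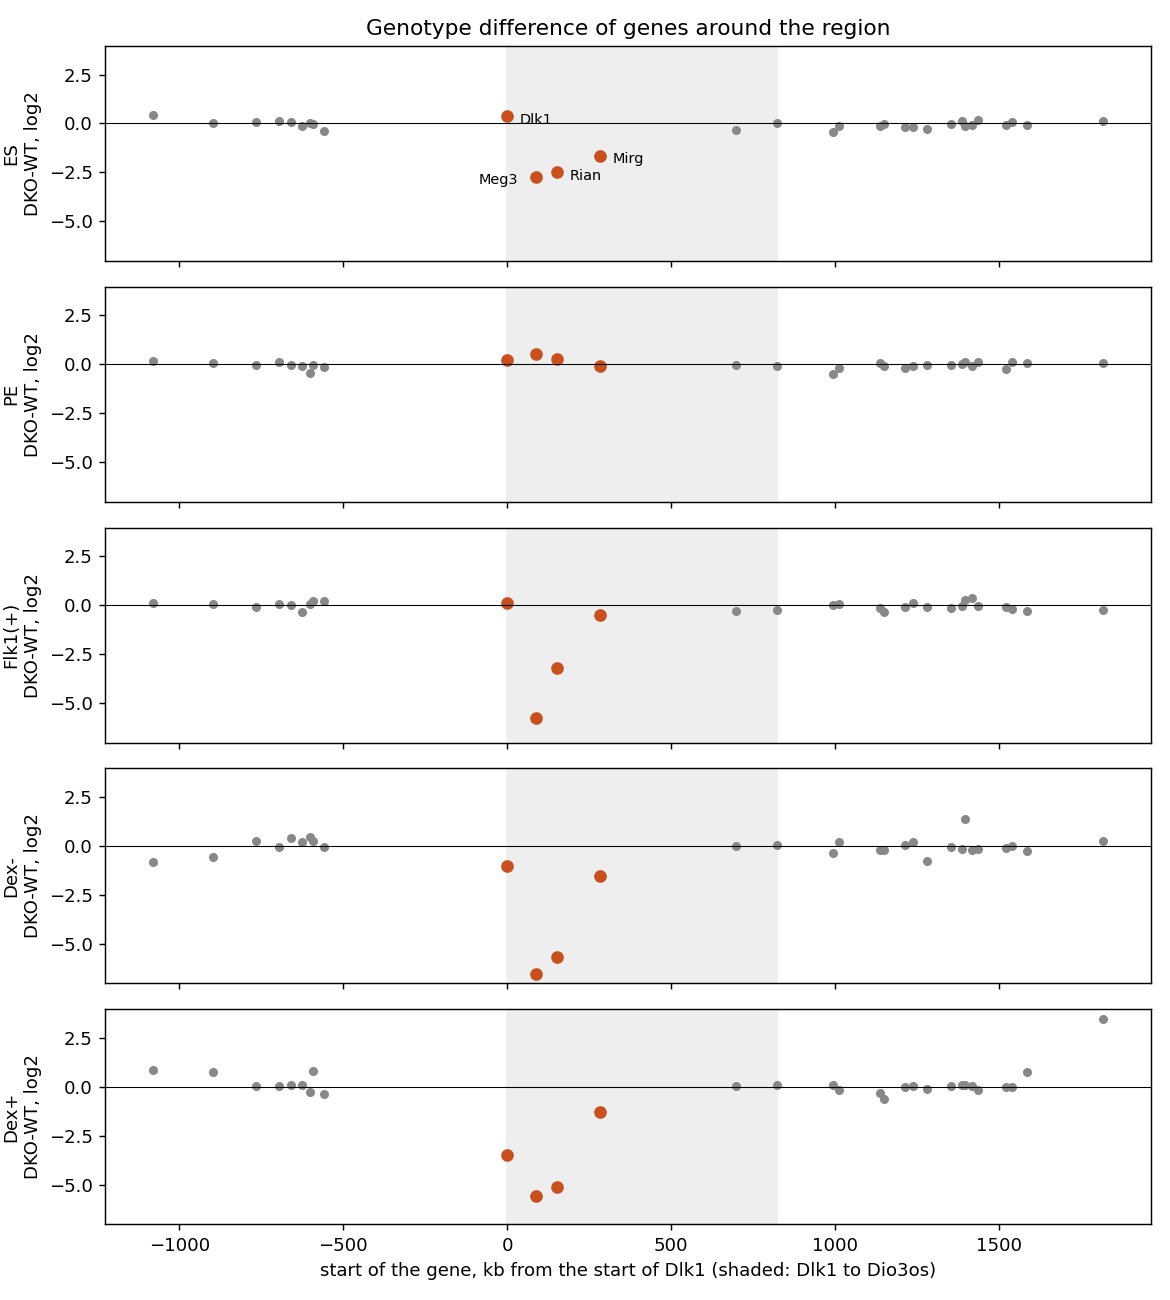
The DKO minus WT difference (log2, vertical axis, 1 panel per state) of measured genes against the distance of their start from the start of Dlk1 (kb, horizontal axis); orange points are the 4 genes described and the shaded span runs from Dlk1 to Dio3os. Meg3 and Rian lie at -2.50 or lower in every state but PE. Dlk1 lies at 0.36 and 0.12 in ES and Flk1(+) cells, where its signal was near the array medians in both genotypes. The high grey point in Dex+ cells is Amn (3.47).

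The patterns over the 20 arrays were alike among the noncoding RNAs and unlike that of Dlk1. Pearson's r on the log2 signal was 0.95 between Meg3 and Rian, 0.83 between Meg3 and Mirg and 0.85 between Rian and Mirg, and Rian ranked first of all genes by likeness to Meg3, as Meg3 did to Rian. Dlk1 correlated at 0.18 with Meg3, 0.29 with Rian and 0.33 with Mirg. The points are arrays of 10 groups in pairs and share genotype and state, so these values are descriptions. The genes most like Dlk1 were Col1a1 (a chain of type I collagen, r = 0.99), Crispld2 (0.99), Rbms3 (0.98), Ccn4 (0.98) and Cd248 (endosialin, a surface protein of stromal cells and pericytes, 0.98). Col1a1 read 13.50 in WT Dex- cells, 13.25 in DKO Dex- cells, 12.64 in WT Dex+ cells and 7.33 in DKO Dex+ cells. The genes outside the region most like Meg3 were Espn, Trappc5, Uqcc2, Ttc13 and Sulf2 (r = 0.88 to 0.80), those most like Rian were Espn, Ttc13, Usb1, Sulf2 and Iscu (0.86 to 0.80), and those most like Mirg were Usb1, Kifc3, Espn, Epha2 and Cuedc2 (0.88 to 0.78). Espn followed Meg3 over a small range of group means, from 4.90 to 5.49.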

How the data were processed

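Expression was measured on 20 arrays, 2 per group; the methods of the study describe the duplicates as RNA from independent experiments. Labelling took 2 cycles and started from 50 ng RNA. The deposited log2 values had been made by the authors with RMA (background correction, quantile normalization and median polish); the version, and whether all arrays were summarized together, are not given in the sources used here. Scan days and chip lots came from the deposited experiment files, which hold other, non-expression values per the file headers. Raw intensities were not used, so no detection limit was set, and the number of arrays limits the precision.

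Of 45101 probe sets (64 of them controls), the platform annotation gave 1 gene symbol to 34958, several to 932 and, in the table used here, none to 9211. For each of 18194 genes the probe set brightest on average was kept. limma (version 3.58.1, R 4.3.3) was fitted with 1 mean per group over all arrays (10 residual and 4.54 prior degrees of freedom) in place of the study's SAM, whose settings are not given in the sources used here. The 17 comparisons were DKO against WT in 5 states, 4 state changes in each genotype and the 4 interactions; p-values were adjusted over all genes within a comparison. An exact permutation of 2 against 2 arrays cannot go below a two-sided p of 0.333. The fit was tested on simulated data. Sequences, positions and microRNA genes came from RefSeq tables for GRCm38.p6.

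Deviations of same-numbered WT and DKO arrays from their group means correlated at 0.1752 to 0.3605 in the 5 states. Each such pair also shared a scan day, so the replicate number was taken to pair them. In ES and in Dex+ cells all arrays of the state shared 1 day, so there the day does not single out the pairs. The members, gene lists and tests were chosen with earlier results of these data known. The genes named beside the members were up to 4 of each list with the largest genotype difference past the threshold, the 2 nearest measured genes on each side, and the 5 genes most correlated with each member (provisional names left out). Alternatives were other probe sets, the mean of probe sets, a filter on low genes, median centring, the groups compared alone, robust moderation, no minimum fold, scan day and replicate blocks, and leaving out arrays. The differences within single pairs of arrays were added after seeing the data.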

Additional observations from a re-analysis of the deposited data

Results flagged for a closer look

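In the main fit, which did not pair arrays, the genotype difference changed between states beyond the threshold in a pair of cases. Each was tested as an interaction over all genes with limma. With the replicate block, Meg3 and Rian also passed from ES cells to PE, and Rian and Dlk1 from Flk1(+) to Dex- cells. For Dlk1 the response to Dex was larger in DKO than in WT by -2.49 on the log2 scale, with both DKO Dex+ arrays below both WT Dex+ arrays. For Mirg the DKO minus WT difference rose by 1.56 from ES cells to PE, as WT levels fell and the change in DKO did not pass. This call of Mirg was lost with the mean of its probe sets (1.19, limma adjusted p = 0.08357), as was that of Dlk1 on its dimmer probe set (-0.17). The Mirg call was also lost when single ES or PE arrays were left out, at changes from 1.28 to 1.68.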

How the results depend on the processing

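Under every alternative run, 3 or 4 members were lower in DKO in Dex- and in Dex+ cells and 0 passed in PE. With the mean of all probe sets, 0 members passed from ES to Flk1(+) cells in either genotype, and without the _x_at, _s_at and _a_at probe sets, where Dlk1 is read by its dim probe set, 0 passed with Dex in WT or in that interaction. In the interaction from ES cells to PE, 0 passed when all probe sets were tested, 2 with arrays centred on their medians, 3 with the groups compared alone, 2 with scan day as a block and 3 with the replicate block. From ES to Flk1(+) cells in DKO 2 passed without the lowest 40% of genes. Between genotypes in Flk1(+) cells 0 passed with the groups compared alone. In the interaction from Flk1(+) to Dex- cells 2 passed with scan day as a block, 2 with the replicate block and 1 without the parental-line arrays. The replicate block changed no other count by over 1.5 times. Leaving out 1 array in turn gave 1 to 3 members between genotypes in ES cells, 0 to 2 from ES to Flk1(+) cells in WT, 0 to 2 in DKO, 0 to 2 in the interaction from ES cells to PE and 0 to 1 in that from Flk1(+) to Dex- cells. Signs turned in log2 changes that had not passed, and on single Meg3 probe sets in 2 that had: PE minus ES cells in WT (0.017 on 1428765_at) and Flk1(+) minus ES cells in DKO (0.049 on 1436057_at). Between genotypes in Flk1(+) cells, Dlk1 became -0.071 with the mean of probe sets, -0.26 with its other probe set or without the _s_at set, and -0.064 without the parental-line arrays, and ranged from -0.38 to 0.62 without 1 array. In PE, Rian ranged from -0.35 to 0.90 and Mirg from -0.21 to 0.027 without 1 array, 2 Meg3 probe sets gave -0.061 and -0.027, and 1 Rian probe set gave -0.0055. From ES cells to PE in WT, Dlk1 gave -0.022 with the mean of probe sets, -0.068 with its other probe set or without the _s_at set, -0.0096 with centred arrays, and -0.24 to 0.29 without 1 array; its interaction ranged from -0.40 to 0.12. From ES to Flk1(+) cells in WT, Meg3 gave -0.15 with the mean of probe sets, -0.099 without the parental-line arrays, -0.099 to 0.47 without 1 array, and -0.21, -0.075, -0.57, -0.43 and -2.12 on single probe sets. In DKO, Dlk1 gave -0.28 with its other probe set or without the _s_at set, -0.052 without the parental-line arrays and -0.052 to 0.95 without 1 array, and Mirg ranged from -0.35 to 0.12. In that interaction, Rian gave 0.0031 with the mean of probe sets, 0.052, 0.40 and 0.28 on its other probe sets and -1.50 to 0.056 without 1 array, Dlk1 ranged from -0.75 to 0.26, and Meg3 gave 0.12 and 1.12 on 2 probe sets. From Flk1(+) to Dex- cells in DKO, Meg3 gave -0.25 without the parental-line arrays, -0.019 and -0.31 on 2 probe sets and -0.25 to 0.90 without 1 array, and Rian gave 0.071 with scan day as a block, 0.30 on 1 probe set and -1.06 to 0.49 without 1 array. With Dex, Meg3 probe sets gave 0.11, 0.51, 0.13 and 0.040 in WT, -0.21, -0.21 and -0.032 in DKO and -0.72, -0.16 and -0.025 in the interaction. Without 1 array, the changes with Dex in DKO were -0.53 to 0.86 for Meg3, -0.23 to 0.16 for Rian and -0.16 to 0.057 for Mirg, and Mirg ranged from -0.62 to 0.12 in WT and from -0.17 to 0.57 in the interaction; 1 Rian probe set gave 0.049 in DKO and Mirg 0.070 there with scan day as a block. The causes of these shifts were not tested. Comparisons against ES cells within a genotype could not be fitted with scan day, since all ES arrays shared a day of their own. With 2 arrays per group and no detection limit, DKO signals that reached down to the array medians limit how exactly the folds of Meg3 and Rian are known. Of the genes most like Dlk1, Crispld2 and Cd248 had a Spearman's rho of 0.72 and 0.71 in place of r = 0.99 and 0.98, and over the 10 group means all 5 had r from 0.98 to 0.99. The Spearman's rho of Dlk1 with Mirg was -0.060, in place of r = 0.33, and among the other named likenesses no sign turned.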
